A study of Saccharomyces cerevisiae with 8 samples.

Results

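The genes described here are those whose expression moved one way over 6 h of fermentation in 2 industrial yeast strains and the other way in a laboratory strain. For each gene, the change in JP1 and CAT-1 was the mean log2 ratio of their 4 T6h arrays minus that of their 2 T0h arrays. The change in BY4741 was the ratio of its 1 T6h array, which compares BY4741 after 6 h with BY4741 at the start. A gene was taken when the 2 changes had opposite signs and both were at least 1 on the log2 scale, which is a factor of 2. Of 6256 gene probes, 5938 were bright enough to be kept, and 85 of these met the rule, or 1.43%. In 66 of them (1.11%) the industrial change was positive and the BY4741 change negative, and in 19 (0.32%) the signs were the other way round. Measured values chose these genes, so their changes are given as a description, with no test, and up and down below refer to the sign of a measured change.

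The samples came from a study of ethanol fermentation on sugarcane, in which strains were compared at its start (T0h) and after 6 h (T6h), after repeated 24 h batches in rich glucose medium. JP1, a homothallic diploid, and CAT-1 and PE-2, heterothallic diploids, were isolated from mills in Brazil. BY4741 is a haploid laboratory strain that carries no working HIS3, LEU2, MET17 or URA3. JP1 and CAT-1 had 1 array each at T0h and 2 each at T6h, PE-2 had 1 at T0h, and BY4741 had 1 at T6h. On every array the sample was labelled with Cy5 (red) and set against the same BY4741 T0h RNA in Cy3 (green), so a log2 ratio of 0 is the level of BY4741 at the start. A bias of a probe towards one dye cancels in the industrial change but not in the BY4741 change, and no array carried the dyes the other way round. The spread of the BY4741 reference itself was not measured. PE-2 took no part in the rule.

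Yeast that meets abundant glucose makes ribosomes and represses many genes for storage and stress, while yeast that runs short of sugar does the reverse. Trehalose and glycogen, the storage carbohydrates, are built from glucose phosphates and UDP-glucose, and their genes are known as part of the general stress response of yeast driven by the factors Msn2 and Msn4. Ribosome assembly factors and the subunits of RNA polymerases I and III are known for the opposite behaviour, being made most in fast growth.

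The labels were checked first on the genes that BY4741 lacks. On the BY4741 T6h array HIS3, LEU2, MET17 and URA3 had log2 ratios of -0.02, 0.02, 0.02 and -0.19, and none was well above background in red, whereas all 4 were on each of the 7 industrial arrays. Mating-type genes gave no such clear check. Of the a-specific genes, which a cells such as BY4741 express, MFA2 was at 1.95 in BY4741 at T6h and between -1.91 and -0.10 on the industrial arrays. MFA1, STE6, BAR1 and AGA2, at 1.06, 0.66, 0.22 and 0.12 in BY4741, were also above every industrial array. For BAR1 the margin was small, with JP1 T6h replicate 4 at 0.18. STE2, at -0.04 in BY4741, was not above every industrial array. But the alpha-specific MFALPHA1 and STE3, at 1.66 and 0.71 in BY4741 at T6h, were above every industrial array too. The other alpha-specific genes differed from these. SAG1, at -1.09 in BY4741 at T6h, was below every industrial array, with PE-2 just above it. MFALPHA2, at 0.14 in BY4741 at T6h, was below CAT-1 at T0h, at 0.57. Replicate 4 of JP1 and replicate 5 of CAT-1 at T6h lay on a slide of their own (slide 2), where the green reference was well above background for only 20.7% and 11% of gene probes, against 89.8% to 91.3% on slide 1. Paired spots of a probe correlated less there (Spearman 0.529 and 0.611) than on slide 1 (0.973 to 0.99). In the deposited value table, the columns of BY4741 T6h and of both slide 2 arrays best followed their own scanner files, and the other 5 columns did not. The column of JP1 T0h followed the scanner file of JP1 T6h replicate 1, and that of CAT-1 T0h followed CAT-1 T6h replicate 2. The column of JP1 T6h replicate 1 followed the BY4741 T6h file (r 0.871, against 0.826 with its own), and that of CAT-1 T6h replicate 2 followed JP1 T0h (r 0.861). The PE-2 column followed no file closely, with r 0.158 for its own and 0.36 at best. Samples were taken here as the scanner files name them. Across genes, JP1 T6h replicate 4 correlated at 0.79 with JP1 T6h replicate 1 and at 0.16 with JP1 T0h, and CAT-1 T6h replicate 5 at 0.78 with CAT-1 T6h replicate 2 and at 0.11 with CAT-1 T0h. Both industrial T0h arrays of the rule are among the samples whose columns did not match, so no industrial change can be had without them.

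Opposite responses of this size were a small part of the time response. At the same size limit, 341 genes (5.74% of those kept) went up in both and 208 (3.50%) went down in both. With no size limit, 1287 genes had a positive industrial and a negative BY4741 change, and 1258 the reverse. Across all kept genes, limma found the 2 changes to differ for 712 genes at an adjusted p under 0.05, which is 12% of them. Of these 712, 400 were higher in the industrial strains (6.74%) and 312 were lower (5.25%). The industrial change alone was called up for 754 genes (12.7%) and down for 413 (6.96%), and 55 of the 66 and 16 of the 19 members were among these. The test of the difference takes the lone BY4741 array to vary like the others, and 65 of 66 and 19 of 19 members passed it. The members were chosen on both changes and so on their difference. Nothing is therefore read from these counts, nor from the 55 of 66 and 16 of 19. The number called depended strongly on background correction and normalisation, with 99 called at a smaller normexp offset, 2 with median centring and 1 with Agilent's processed signals.

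**Figure D1:**
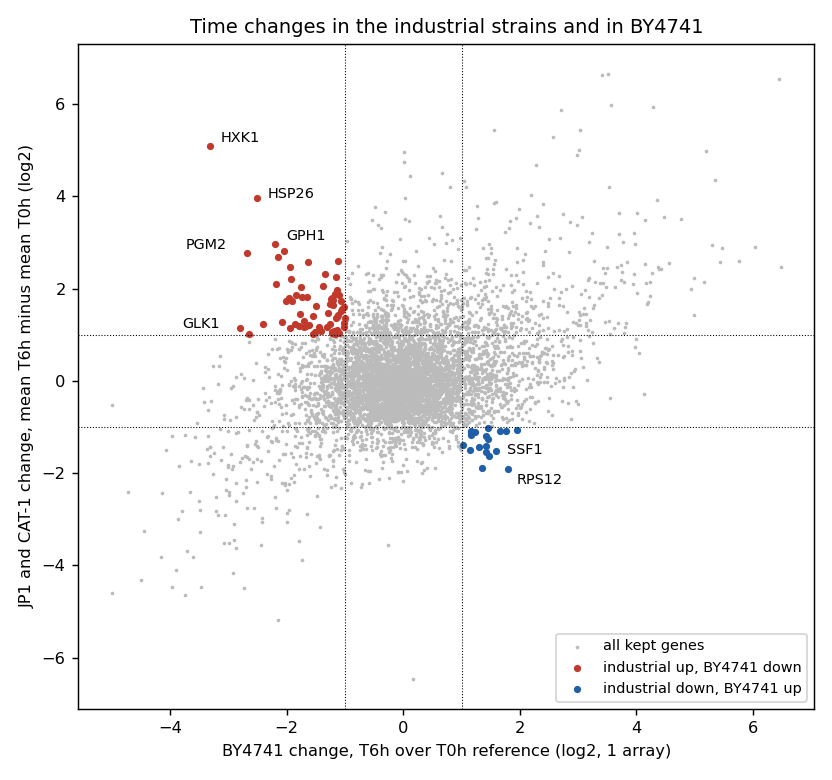
Change in BY4741 (horizontal, log2, 1 array) against the change in JP1 and CAT-1 (vertical, log2, mean of 4 T6h arrays minus mean of 2 T0h arrays) for 5938 genes in grey. Dotted lines mark the size limit of 1; the 66 genes in red lie at the upper left and the 19 in blue at the lower right, with HXK1 farthest out at 5.09 and -3.32.

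Most genes of the set shared where they stood at the start. In the 66 genes that went up in the industrial strains, the median log2 ratio to BY4741 at T0h was -1.40 in JP1 and CAT-1 at T0h and 0.34 at T6h, while BY4741 at T6h was at -1.47. Industrial cells at the start were mostly low in the genes in which BY4741 was low after 6 h. Both of their T0h arrays lay below the reference in 60 of 66 genes, and their T0h mean was at -1 or lower in 51. Their T0h mean lay within 1 of the BY4741 T6h value in 53 of 66 genes, and their T6h mean lay within 1 of the BY4741 T0h level in 55 of 66. The 19 genes of the other direction mirrored this, with medians of 1.17 at T0h and -0.03 at T6h in JP1 and CAT-1 and of 1.43 in BY4741 at T6h. There the T0h mean lay within 1 of BY4741 T6h in 18 of 19 genes, and the T6h mean within 1 of the BY4741 T0h level in 18 of 19. These arrays entered the rule, so the counts describe the set. The matching shares of all kept genes were not counted, for the genes within 1 or for those below the reference at T0h. None of these counts is therefore set against a background. The medians of all kept genes were 0.00 at T0h, -0.01 at T6h and -0.01 in BY4741.

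PE-2, which the rule did not use, gave the same picture at T0h. In the 66 genes its median was -1.24, and it lay below the BY4741 T0h reference in 63, against 50.3% of all kept genes. It was at -1 or lower in 42 of 66 genes, where 9.06% of all kept genes were. In the 19 genes its median was 0.89, with 17 above 0 (49.7% of all kept genes) and 8 at 1 or higher (6.2% of all kept genes). The 4 industrial T6h arrays entered the rule, so a count of PE-2 against them is partly set by it. The matching share of all kept genes was not counted, so this count is a description only. PE-2 at T0h lay below all 4 industrial T6h arrays in 56 of the 66 genes and above all of them in 16 of the 19. It is 1 array without a replicate, its column in the value table did not match its scanner file, and it shares the BY4741 reference with the arrays of the rule, so a level particular to the industrial strains and BY4741 at T6h cannot be told apart from one particular to the BY4741 T0h culture.

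**Figure D2:**
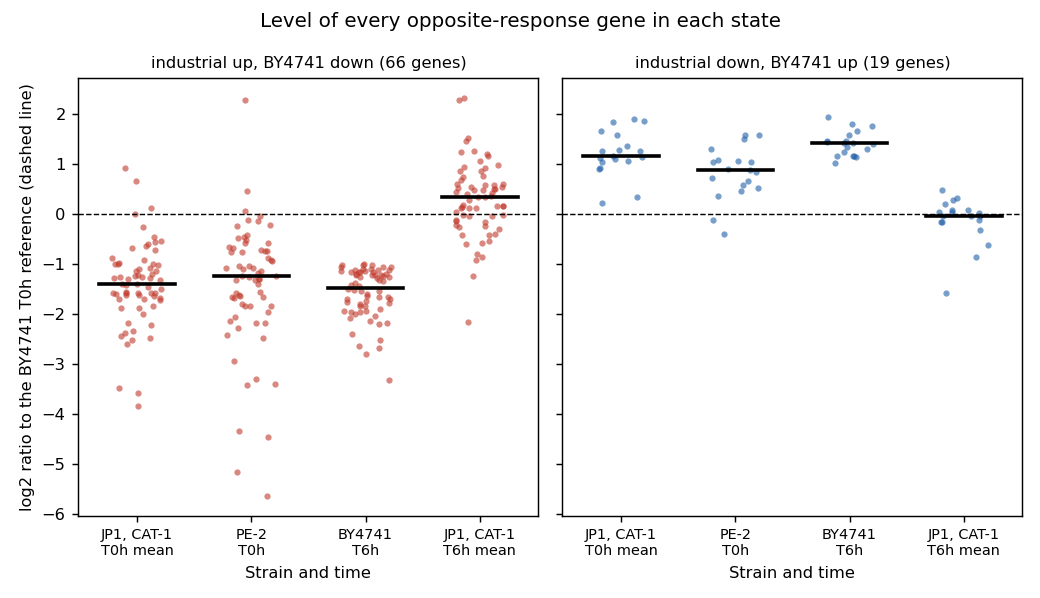
Log2 ratio to the BY4741 T0h reference (dashed line) of each of the 66 genes (left) and 19 genes (right) in JP1 and CAT-1 at T0h, PE-2 at T0h, BY4741 at T6h and JP1 and CAT-1 at T6h, with medians as bars. The medians of the first 3 states lie on one side of the reference, at -1.40, -1.24 and -1.47 on the left and 1.17, 0.89 and 1.43 on the right. The medians of the industrial T6h means lie nearer to it.

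Among the 66 genes, the widest gap was in glucose phosphorylation. HXK1, the hexokinase of cells short of glucose, was at -3.57 in JP1 and -4.13 in CAT-1 at T0h, at 1.88 on both JP1 T6h arrays, and at -0.02 and 1.25 in CAT-1 at T6h. On the BY4741 T6h array it was at -3.32, and in PE-2 at T0h at -5.16. All T6h industrial arrays were above both T0h arrays, and the industrial change was 5.09 ± 0.38 (SE, 4 arrays against 2), which differed from that of BY4741 by 8.41 ± 0.59. GLK1, the glucokinase, shifted less in the industrial strains: it was at -2.50 and -2.27 at T0h, between -1.49 and -0.92 at T6h, and at -2.81 in BY4741. Its industrial change was 1.15 ± 0.29, and it stayed below the reference on every array. HXK2, the main hexokinase in glucose and not a member, had changes of 2.60 in the industrial strains, from a mean ratio of -2.63 at T0h to -0.03 at T6h, and of 3.27 in BY4741.

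Other genes of sugar entry and early sugar metabolism were in the set. PFK26, which makes the activator of phosphofructokinase, had an industrial change of 1.07 and a BY4741 change of -1.19, and was one of 3 of the 66 genes above the reference in PE-2, at 0.46. HXT6, a high-affinity hexose transporter, was at -0.10 in JP1 and 1.44 in CAT-1 at T0h, at 2.93 and 2.70 in JP1 and 1.65 and 1.82 in CAT-1 at T6h, and at -1.02 in BY4741. PE-2 held it at 2.29, the highest PE-2 value of the 66. Its near-identical neighbour HXT7 showed a like pattern, with 1.68 and -0.87, and the probes of the pair may not tell their RNAs apart. SOL4, a 6-phosphogluconolactonase of the pentose phosphate pathway, was at -2.10 and -2.26 at T0h and at -2.14 in BY4741. At T6h it split by strain, at 1.37 and 1.49 in JP1 and -0.62 and -0.24 in CAT-1. In the glycolysis list as a whole, 19 of 22 genes went up by at least 1 in both, so HXK1 and GLK1 stood apart from the list's usual direction in BY4741 only. PYK2, not a member, also had a negative BY4741 change, at -2.30, with 0.09 in the industrial strains. The difference of the changes was called higher in the industrial strains for 11 of the 22 and lower for 1. Of all kept genes, 6.74% were called higher and 5.25% lower. Such counts, here and in the lists below, include the members that the rule chose.

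Of the lists examined, that of trehalose and glycogen genes held the most members, 6 of 21, all in the same direction. PGM2, the phosphoglucomutase that links glycolytic sugar to storage, was at -1.68 and -0.95 at T0h, between 1.02 and 1.96 at T6h and at -2.67 in BY4741. GPH1, the glycogen phosphorylase, was at -1.36 and -2.07 at T0h, between 0.39 and 1.82 at T6h and at -2.19 in BY4741. TPS1, the trehalose-6-phosphate synthase, was at -1.71 and -2.04 at T0h, between -0.30 and 0.86 at T6h and at -1.93 in BY4741. For each of the 3, the T6h industrial arrays did not overlap with the T0h arrays, and the BY4741 T6h value lay within or below the industrial T0h values. Their industrial changes were 2.77 ± 0.36, 2.97 ± 0.32 and 2.21 ± 0.32. UGP1, which makes UDP-glucose, had changes of 2.32 in the industrial strains and -1.34 in BY4741. The regulatory subunits of trehalose synthase, TSL1 and TPS3, had industrial changes of 1.79 and 1.80 and BY4741 changes of -1.96 and -1.22. GIP2, a regulator of the phosphatase that acts on glycogen synthase, was in the set as well but not in the list, with changes of 1.66 and -1.26.

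Over the 21 genes of that list, the 6 members included, the median change was 0.70 in JP1 and CAT-1 and -1.93 in BY4741, against -0.00 and -0.01 for all kept genes. In 18 of 21 the industrial change was positive and the BY4741 change negative. The difference was called higher by limma for 15 (6.74% of all kept genes) and lower for 0 (0 also at an unadjusted p under 0.05). The glycogen synthase genes GSY1 and GSY2 had changes of -3.26 and -2.64 in BY4741 and of 0.31 and 0.84 in the industrial strains, short of the size limit. GDB1, the debranching enzyme, had changes of -3.16 in BY4741 and 0.33 in the industrial strains. Others moved more in the industrial strains: IGD1, an inhibitor of that enzyme, had the largest industrial change of the list, at 3.78, and a BY4741 change of -0.49, and GAC1, a regulator of glycogen synthase, had changes of 2.29 and -0.39. Only GLC3, GLG2 and ATH1, for branching, priming and trehalose breakdown, were negative in both. The calls depend on the normalisation, as for all genes, but the levels did so less: with Agilent's signals, the smaller offset, median centring or slide 1 alone, the median was 0.65 to 0.84 in the industrial strains and -2.29 to -1.93 in BY4741, and 17 or 18 of the 21 had these opposite signs.

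**Figure D3:**
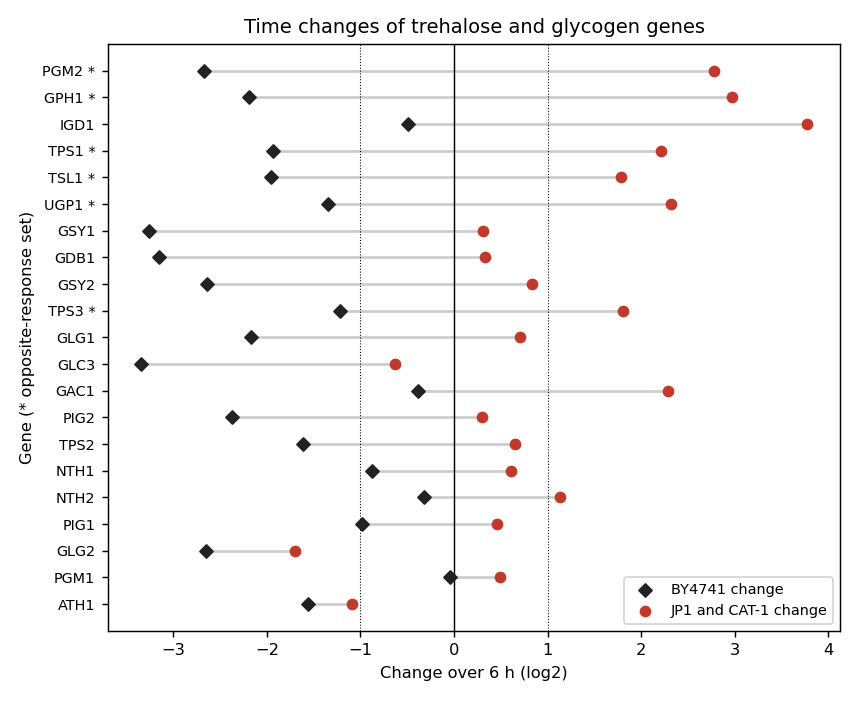
Change over 6 h (log2) of the 21 trehalose and glycogen genes in BY4741 (black diamonds, 1 array) and in JP1 and CAT-1 (red circles, 4 T6h arrays against 2 T0h arrays), ordered by the difference. The 6 genes with a star lie beyond the dotted limits of 1 on both sides; all but GLC3, GLG2 and ATH1 lie on opposite sides of 0.

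HSP26, the small heat shock protein that holds unfolded proteins, had the lowest PE-2 value of the 66, at -5.63. It was at -4.35 in JP1 and -2.61 in CAT-1 at T0h, between 0.16 and 0.73 at T6h and at -2.52 in BY4741, so JP1 and CAT-1 were farther apart at the start, with 1 array each, than after 6 h. Of 34 heat shock and chaperone genes it was the only member. In that list 14 were called higher (6.74% of all kept genes) and 0 lower (2 lower at an unadjusted p under 0.05). The list's median changes were 2.34 in the industrial strains and 0.71 in BY4741, and 12 of its genes went up by at least 1 in both. HSP104, the disaggregase, had changes of 3.38 and -0.43, and so missed the BY4741 limit.

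Stress and drying genes followed in smaller steps. SOD2, the mitochondrial superoxide dismutase, was at -1.06 and -1.44 at T0h, between 0.01 and 0.82 at T6h and at -1.65 in BY4741. CTT1, the cytosolic catalase, was at 0.61 in JP1 but -1.14 in CAT-1 at T0h, and its T6h values of -0.12 to 1.70 overlapped with these. These 2 were the only members among 29 oxidative stress genes. Of the 29, with these 2 included, 7 were called higher and 1 lower, against 6.74% and 5.25% of all kept genes. In the list of 30 drying and stationary phase genes, 5 were members, SOL4, STF2, SPI1, GCY1 and RTC3, and 11 others went down by at least 1 in both. STF2, a hydrophilin that protects dried cells, was at 1.51 and 1.21 in JP1 and at -0.47 and -0.50 in CAT-1 at T6h, against -0.41 and -1.02 at T0h and -1.95 in BY4741. Its T6h and T0h arrays overlapped. RTC3 lay just inside the limit, with 1.01 and -2.64.

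Genes of the wall and of membranes came from several lists. TIR1, a mannoprotein of cells without oxygen, was at -2.57 and -2.48 at T0h, between -0.39 and 0.21 at T6h and at -1.94 in BY4741. SIM1, a wall protein of the SUN family, was at -1.81 and -1.43, between 0.19 and 0.62, and at -1.75. In both genes the industrial T6h arrays lay near the reference and clear of the T0h arrays. SPI1, a wall protein of stationary cells, had changes of 2.05 and -1.38 and a PE-2 value of -4.47. AQY3, an aquaglyceroporin-like gene, had changes of 1.73 and -2.0 but was above background in red on only 6 arrays. AVT6, which exports amino acids from the vacuole and is in no list, had changes of 1.74 and -1.90. Of 44 cell wall genes, 2 were members, and 14 were called higher (6.74% of all kept genes) and 0 lower (0 also unadjusted).

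Genes tied to oxygen split between the directions. CYC7, the cytochrome c form of low oxygen, was at 2.42 in JP1 but -0.58 in CAT-1 and -0.65 in PE-2 at T0h, between 1.80 and 3.09 at T6h and at -1.54 in BY4741. YHB1, the flavohemoglobin that removes nitric oxide, was at -1.67 and -3.20 at T0h, between -1.34 and -0.63 at T6h and at -1.06 in BY4741, below the reference throughout. AUS1, a sterol importer of cells without oxygen, went the other way and was at 1.08 and 1.00 at T0h, between -0.73 and 0.37 at T6h and at 1.65 in BY4741. Of the 14 hypoxic genes these 3 were members. In that list 3 were called higher and 1 lower (4 and 3 at an unadjusted p under 0.05). All 3 members, which the rule chose, are among those called, so the counts are a description. CYC7 and STF2 were also the only members among 40 genes of oxidative phosphorylation, of which 32 went down by at least 1 in both. For glycerol, GPD1 and GCY1, dehydrogenases of its synthesis and breakdown, had industrial changes of 1.17 and 1.18 and BY4741 changes of -1.31 and -1.66, while GPP1 and GPP2, which finish its synthesis, were up in both, by 1.66 and 2.14 in the industrial strains and 4.17 and 4.24 in BY4741.

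Further members of the 66 had other roles. Those of actin and messenger RNA processing, like UGP1, TPS3, GIP2, MAK16, ZNF1 and YPK2, were chosen for mention after their values were seen. Cortical actin was represented by ABP1, an actin-binding protein, ARP3, a subunit of the Arp2/3 complex, and CAP2, of the capping protein, with industrial changes of 2.24, 1.19 and 1.16 and BY4741 changes of -1.16, -1.79 and -1.01. Messenger RNA processing was represented by NPL3, an export and splicing factor, PTA1, of 3′ end formation, MSL5, which binds the intron branch point, and ESS1, a prolyl isomerase that acts on RNA polymerase II. Their industrial changes were 1.64, 1.38, 1.56 and 1.06, and their BY4741 changes -1.20, -1.14, -1.05 and -1.52. DED1, an RNA helicase of translation initiation, lay just inside the limit at 1.36 and -1.005, and its JP1 T6h replicate 1 at -1.77 was no higher than JP1 at T0h at -1.76. Of 32 genes of nitrogen catabolite repression, 2 were members, CAR2, of arginine breakdown, and OPT2, a peptide transporter, with industrial changes of 1.62 and 1.97 and BY4741 changes of -1.50 and -1.14. In that list 5 were called higher (6.74% of all kept genes) and 0 lower (1 lower at an unadjusted p under 0.05). CAR2 and OPT2 were among the 5. NNR1, which repairs damaged NADH, TFS1, an inhibitor of carboxypeptidase Y, and MRK1, a kinase of the GSK-3 family, were among the 14 with the greatest changes by the naming rule, with industrial changes of 2.09, 2.81 and 1.85.

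**Figure D4:**
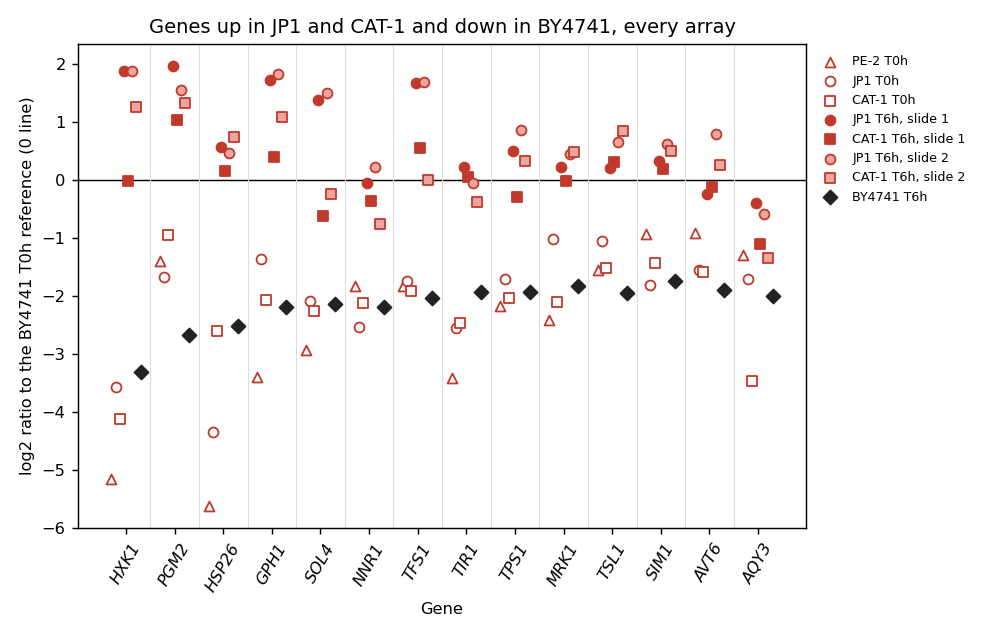
Log2 ratio to the BY4741 T0h reference on all 8 arrays for the 14 named genes with the greatest opposite changes in the upward industrial direction. Open symbols (T0h) and the black diamond (BY4741 T6h) lie below the filled and pale symbols (industrial T6h, slides 1 and 2), except in AQY3, where PE-2 at -1.30 is just above CAT-1 T6h replicate 5 at -1.35 and all 8 values are below 0.

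Among the 19 genes that went down in the industrial strains and up in BY4741, 7 were in the lists of ribosomal proteins, ribosome biogenesis and RNA polymerases I and III. RPS12, a protein of the small ribosomal subunit, had the largest industrial change. It was at 0.48 in JP1 and 0.19 in CAT-1 at T0h, at -1.19 and -1.30 in JP1 and -1.88 and -1.97 in CAT-1 at T6h, and at 1.79 in BY4741. No T6h array came near the T0h arrays, and the industrial change was -1.92 ± 0.29. It was the only member among 137 cytosolic ribosomal protein genes, whose median changes were 0.48 in the industrial strains and 1.89 in BY4741. In that list 28 genes went up by at least 1 in both. The difference was called lower for 54 (5.25% of all kept genes) and higher for 0 (0 higher at an unadjusted p under 0.05).

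Ribosome assembly factors gave 5 of the 19, SSF1, NOP10, NOP15, SPB1 and MAK16. NOP15, needed for the large subunit, was at 1.77 and 0.56 at T0h, between -0.20 and 0.12 at T6h and at 1.43 in BY4741. NOP10, a part of the particles that guide pseudouridine formation, was at 1.40 and 0.81, between -0.46 and 0.35, and at 1.45. SPB1, a methyltransferase of large subunit assembly, was at 1.22 and 1.28, between -0.45 and 0.58, and at 1.16. In these 3 the BY4741 T6h value lay among the industrial T0h values or close by, and PE-2 was positive, at 1.30, 0.36 and 1.04. SSF1, also of the large subunit, was at 1.39 and 0.40 at T0h, between -1.44 and 0.23 at T6h and at 1.59 in BY4741. Its near copy SSF2 had changes of -1.004 and 0.30, and the probes of the pair may not tell their RNAs apart.

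The list behind these factors moved as a body by less than the limit. Of 104 ribosome biogenesis genes measured, 91 had a negative industrial and a positive BY4741 change, with medians of -0.75 and 0.71. limma called the difference lower for 29 of them (5.25% of all kept genes) and higher for 0 (0 at an unadjusted p under 0.05). With the same 4 alternatives the medians were -0.83 to -0.76 and 0.69 to 0.97, and 86 to 92 of the 104 genes had these signs. PE-2 at T0h was at 1 or higher in 46 of the 104, and the list's median there was 0.92. DBP2, an RNA helicase, had the widest difference of the list at -3.31, with -0.47 and 2.83, and so missed the industrial limit. UTP9, of the small subunit processome, had changes of -0.87 and 2.16. Of 25 genes of RNA polymerases I and III, 20 showed these signs and 12 were called lower (5.25% of all kept genes). RPO26, a subunit shared by all 3 nuclear polymerases, was the member, with -1.08 and 1.17.

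Other members of the 19 are in none of these lists. NIP7, of large subunit assembly, was at 2.55 and 1.11 at T0h, between -0.11 and 0.01 at T6h and at 1.34 in BY4741. TSR2, a carrier for a small subunit protein, was at 1.77 and 0.78, between -0.29 and 0.59, and at 1.95. SYO1, which brings ribosomal proteins of the large subunit into the nucleus, was at 1.79 and 1.35, between -0.69 and 0.44, and at 1.14. In all 3 the T6h industrial arrays lay near the reference, below both T0h arrays. RMT2, which methylates a ribosomal protein, differed most between the strains, with a change of -2.61 in JP1 and -0.24 in CAT-1. SUI1, translation initiation factor eIF1, had changes of -1.02 and 1.45, and with RPO26 was one of 2 of the 19 below the reference in PE-2, at -0.41 and -0.12. LSM2, of the ring that binds U6 and decaying messages, had changes of -1.54 and 1.43, and NAS6, an assembly chaperone of the proteasome, had changes of -1.10 and 1.16.

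**Figure D5:**
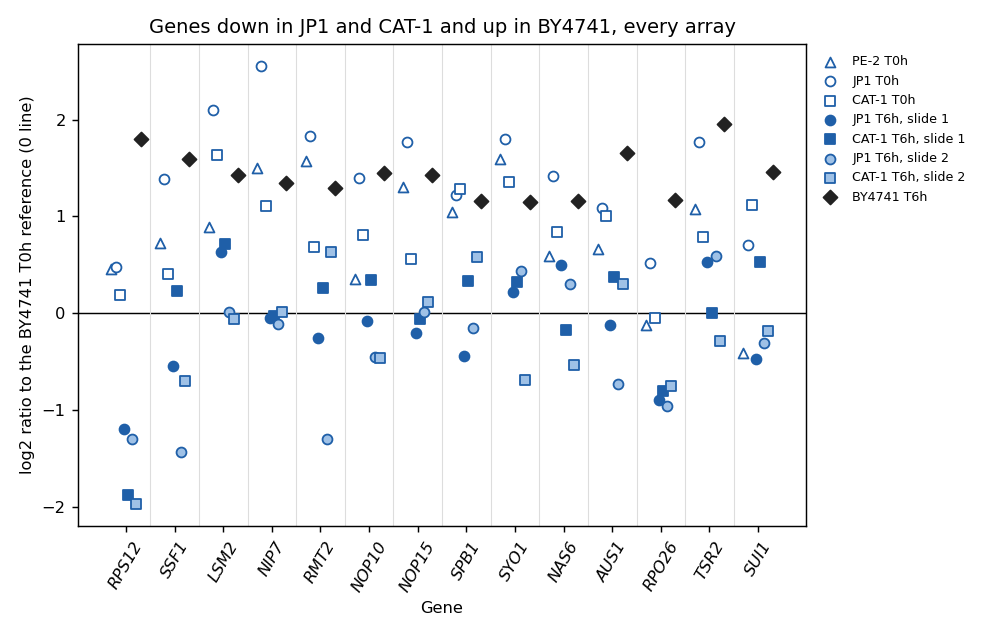
Log2 ratio to the BY4741 T0h reference on all 8 arrays for the 14 named genes with the greatest opposite changes in the downward industrial direction. In each gene the black diamond (BY4741 T6h) and the JP1 and CAT-1 T0h values (open circles and squares) are above the industrial T6h values (filled and pale); RPS12 reaches -1.97, and most others end near 0.

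JP1 and CAT-1 moved in the same direction in all 66 and all 19 genes, but not always as far. The rule set the mean of their changes at 1 or more in size, which favours the same sign in both. The shared direction is therefore a description. In the 66 genes the median change was 1.52 in JP1 and 1.53 in CAT-1, and 40 passed the limit of 1 in both strains. In the 19 genes the medians were -1.66 in JP1 and -0.93 in CAT-1, 18 passed the limit in JP1 and 6 in CAT-1, and 5 passed in both. The test of CAT-1 against JP1, which is independent of the rule, called 0 of 5938 genes by limma, with 341 (5.74%) at an unadjusted p under 0.05. Of the members, 7 of 66 and 2 of 19 were among those 341. The widest was HXT6, with a change of 2.92 in JP1 and 0.29 in CAT-1 (limma adjusted p 0.39 for the difference of -2.63 ± 0.59). CYC7 and OPT2 went further in CAT-1, by 1.98 ± 0.61 and 1.79 ± 0.64, and HSP26 and SOL4 further in JP1, by 1.81 and 1.70. With 1 T0h array per strain, this test has little to measure the start with.

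The spread of the arrays behind the members is a description too, since the same arrays chose them. The 4 industrial T6h arrays lay wholly above both T0h arrays in 57 of the 66 genes, and 21.3% of all kept genes did so. They lay wholly below in 17 of the 19, as did 19.5% of all kept genes. The exceptions were CAR2, CYC7, ZNF1, PRO3, CTT1, STF2, RME1, RTC3 and DED1 in the first direction and YLR255C and HTL1 in the second. On the lone BY4741 array both spots of a probe had a size of at least 1 in 63 of 66 and 18 of 19 genes. They differed by a median of 0.06 and 0.11, which is spread between spots of 1 array and not the error of a repeat culture. On slide 2 the green reference was well above background for few probes. The slide 2 arrays gave a median change from T0h of 1.64 in the 66 genes and -1.45 in the 19. Slide 1 alone gave 1.40 and -1.08. Every member kept its sign on slide 2. On slide 1 alone 53 of 66 and 13 of 19 passed the limit.

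In brightness the members were measurable, though not on all arrays. The reference channel was well above background on the BY4741 array for all 66 and all 19 genes. On both slide 2 arrays it was so for 19 of the 66 and 2 of the 19, and on neither for 30 and 14. In red, ZNF1, a regulator of respiratory growth, was above background on 4 arrays and not in BY4741 at T6h, so its -1.70 there is only a bound. No spot of a member was saturated.

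The members were scattered over the genome. By gene order along the chromosomes, one run of 3 adjacent members was found, YMR103C, YPK2 and PGM2 on chromosome XIII, all of the first direction. YPK2 is a kinase of membrane and wall homeostasis. Its changes were 1.24 and -2.40, and those of YMR103C were 1.81 and -1.74. Among the 10 outermost genes of a chromosome arm lay 4 of the 66 (6.06%) and 0 of the 19, against 5.41% of all kept genes. These include YEL077C and YHL050C, which have near-identical copies at other chromosome ends, so their values may belong to several genes. At the limit itself, YGK1 with -1.49 and 0.996 and SPL2 with 0.99 and -2.70 lay just outside.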

How the data were processed

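Per the file headers, Agilent Feature Extraction 10.10.1.1 made the deposited spot signals and backgrounds, which are intensity values, and processed signals with their log10 ratio of red to green. The deposited marks for background, outlying and saturated spots have no physical unit (other), nor has the deposited value table a stated one. The submitters' processing notes name limma without a version. Here outlying or uneven spots were dropped, signals were corrected by normexp (offset 50) and normalised by loess in limma 3.58.1 under R 4.3.3, and the 2 spots of a probe averaged into log2 ratios (the deposited files give 6256 gene probes, of which 5756 matched the reference gene table, NCBI RefSeq). A probe was kept if, on 3 arrays or more, its red or green signal was well above background. limma's two-sided moderated test on 7 arrays had strain as a term, with Benjamini-Hochberg adjustment over 5938 genes at 0.05, and was tested on simulated data. The design calls the samples biological replicates, and the labels do not say that they came from separate cultures. Genes were named by rule: per direction the 14 with a standard name, no overlap and the greatest smaller change, up to 4 members of each of 46 textbook lists that held at least 2, those nearest the limit, and the PE-2 extremes. Members, lists and rule were chosen with earlier results of these data known. Position was described by gene order, since the build of the array design was not matched, and promoter sequence was not analysed here. Alternatives were the background correction, normalisation, filter, slide, strain term, size limit and each array left out. The number of arrays limits the precision.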

Additional observations from a re-analysis of the deposited data

Results flagged for a closer look

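The time change in JP1 and CAT-1 differed from that in BY4741 for 712 genes by limma's test of the difference itself. In 74 of the 85 members, all 4 industrial T6h arrays moved one way from both T0h arrays while the lone BY4741 array moved the other way. Of all kept genes, 21.3% had all 4 industrial T6h arrays above both T0h arrays, and 19.5% had them below. For these 74 the groups moved in opposite directions by the rule that chose them, and the difference was not tested apart from it.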

How the results depend on the processing

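The sign of the difference, which the rule had set, was kept by all 66 and all 19 members in every alternative that tested them. None of 43 named genes reversed in 747 comparisons of setting and gene (577 moved by less than the spread, 170 by more). Opposite signs of the 2 changes were kept too, except with PE-2 in place of JP1 and CAT-1 at T0h (64 of 66 and 18 of 19). Fewer members still met the size limit of 1. With PE-2 in place 48 of 66 and 7 of 19 did, and with CAT-1 alone or without JP1 T0h 52 and 6. The counts depended more on processing. The main processing called 712 genes (56.2% higher), and each alternative was counted over all the genes it tested. Agilent's processed signals called 1 (100% higher), a normexp offset of 10 called 99 (80.8% higher) and median centring called 2. The median residual SD in these was 0.606, 0.473 and 0.581, against 0.377 in the main processing. Agilent's signals moved the median difference of all genes to 0.18, from 0.01 in the main processing. A strict filter left 677 genes (median difference 0.44), with 225 called (81.8% higher), slide 1 alone gave 114 (75.4% higher), no strain term 359, JP1 alone 2, CAT-1 alone 779, and PE-2 in place of JP1 and CAT-1 at T0h, added after seeing the data, 58 (86.2% higher). Leaving out 1 array gave 180 to 917, with 180 without JP1 T0h, 307 without CAT-1 T0h and 354 without CAT-1 T6h replicate 5. The 66 became 132 with Agilent's signals and 19 with the strict filter, and 334 and 18 at size limits of 0.5 and 1.5. The 19 became 86 with Agilent's signals, 44 with the offset of 10, 2 with the strict filter, 66 with JP1 alone, and 242 and 2 at limits of 0.5 and 1.5. Without 1 array, the 19 became 13 to 66, with 13 without JP1 T0h, 66 without CAT-1 T0h and 29 without JP1 T6h replicate 1 or CAT-1 T6h replicate 2. For CAT-1 against JP1 the 0 became 31 without JP1 T6h replicate 1 and 50 without JP1 T6h replicate 4. The strict filter tests fewer genes and the omissions use fewer arrays; for the rest the cause was not tested. No paired analysis was made, since replicate numbers run on across the strains within a time and the labels name no pairs. On slide 2 few green signals were well above background, which limits the precision of its ratios.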
